A study of Homo sapiens with 6 samples.

Results

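The human alkaline phosphatase family holds 4 genes, ALPG, ALPP, ALPI and ALPL, and was examined in PANC-1 cells with and without silencing of ZDHHC20. The family was chosen from these same measured values, because ALPG and ALPP were higher in the shZDHHC20 libraries, so their difference between the groups is given as a description without a test. Of the 4 genes, 2 (ALPG and ALPP) had a row in the deposited table of 27394 genes, and both passed the filter on low values that left 22189 genes for testing. ALPI (ENSG00000163295) and ALPL (ENSG00000162551) were not analysed here.

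PANC-1 is an established human line of pancreatic ductal carcinoma cells. Total RNA was sequenced from 3 libraries of cells carrying a control short hairpin RNA (shControl) and 3 libraries of cells carrying a hairpin against ZDHHC20 (shZDHHC20), an enzyme that attaches palmitate to cysteines of other proteins. Both groups received their hairpin by what the labels call transfection infection. Their medium was given as RPMI-1640 with serum, whereas the study's methods name DMEM with serum for its cell lines. The labels name no other treatment. All 6 libraries come from 1 cell line, the labels do not name the hairpin sequence, and they do not say whether the 3 libraries of a group came from separate cultures, so that the p-values below measure only the spread between these libraries, which may be technical.

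Alkaline phosphatases are ectoenzymes held on the outer face of the plasma membrane by a glycosylphosphatidylinositol (GPI) anchor, and they remove phosphate from substrates such as pyrophosphate, nucleotides and pyridoxal phosphate, the circulating form of vitamin B6. ALPL encodes the tissue-nonspecific enzyme of bone, liver and kidney, which is needed for mineralisation, and ALPI the enzyme of the intestinal brush border. ALPP encodes the placental enzyme and ALPG, formerly ALPPL2, the closely related germ cell enzyme, and both are known as antigens that some carcinomas and germ cell tumours express outside their normal tissues.

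ALPG and ALPP lie close together on chromosome 2, and their coding sequences are near-copies of each other. This matters for the values of both genes below, because short reads from the stretches the genes share cannot be assigned to one of them. In the GENCODE 29 annotation of GRCh38, ALPP (ENSG00000163283) runs from 232378534 to 232382889 and ALPG (ENSG00000163286) from 232406843 to 232410714, both on the plus strand, with 23954 bases between them. ALPI starts 45409 bases beyond the end of ALPG. The coding sequences of ALPG (1596 bases without the stop codon) and ALPP (1605 bases) were identical at 97.3% of 1607 aligned columns, with a longest identical run of 339 bases. ALPG and ALPI were 89.1% identical and ALPP and ALPI 88.8%, whereas ALPL differed from each of the other genes, at 65.7% to 65.8% identity.

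Over whole transcripts the overlap was smaller. Of the 2444 windows of 50 bases in the ALPG transcript, 716 (29.3%) also occurred in ALPP, and the same 716 made up 24.5% of the 2922 windows of ALPP. With windows of 100 bases the shared part fell to 15.8% of ALPG and 13.2% of ALPP, and with 150 bases to 8.49% and 7.05%. ALPI shared 12 windows of 50 bases with ALPG and 38 with ALPP, and none of 100 bases. ALPL shared none at any of these lengths. ALPP also had between 1 and 16 windows of 50 bases in common with each of 18 genes outside the family. The read length and the treatment of reads with several matches are not given in the sources used here, so the split of reads between ALPG and ALPP is uncertain by an unknown part of these shares. The limit bears most on ALPP, whose whole count averaged 8.34% of the ALPG count in shControl and 7.42% in shZDHHC20. Both are below the 29.3% of ALPG windows shared at 50 bases. The part of the ALPP count, and of its difference between the groups, that came from ALPG reads was not tested.

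**Figure D1:**
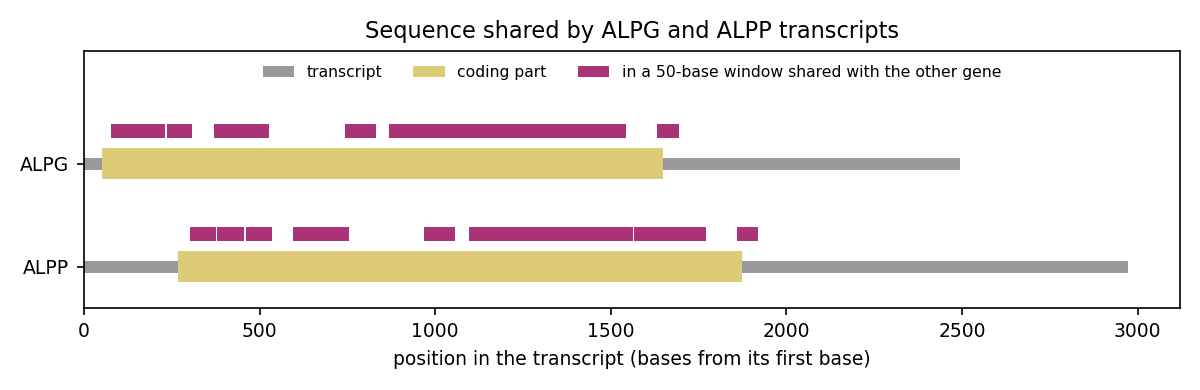
Map of the ALPG (2493 bases) and ALPP (2971 bases) transcripts, by position in bases from the first base (x axis), with the coding part in yellow and the stretches covered by 50-base windows found in the other gene in purple. The shared stretches lie almost wholly in the coding parts, the longest running from base 1000 to 1338 of ALPG and from 1226 to 1564 of ALPP, and the long stretch after the coding part of each gene holds almost none.

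The region just before the start of ALPG is shown as a description, and its part in the values below was not tested. It is RefSeq sequence on the plus strand of GRCh38.p14 at chr2:232406594-232406843, the 250 bases upstream of the RefSeq start, and the capitals mark AGGTCA, the half-site of many nuclear receptors, and TTTAAA, an AT-rich hexamer at the usual place of a TATA box.
ALPG: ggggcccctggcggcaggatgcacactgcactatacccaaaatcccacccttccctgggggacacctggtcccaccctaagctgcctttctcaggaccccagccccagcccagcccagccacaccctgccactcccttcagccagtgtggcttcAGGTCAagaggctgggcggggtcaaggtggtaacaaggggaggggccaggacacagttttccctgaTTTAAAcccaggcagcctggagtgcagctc

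The 250 bases upstream of the RefSeq starts of ALPG and ALPP were identical at 86.1% of 252 aligned columns, with a longest identical run of 64 bases. The GENCODE start of ALPP lies 217 bases upstream of the RefSeq start, so its sequence is not printed. TTTAAA began at position -30 and AGGTCA at position -96 in both genes, counted from the RefSeq start and the motifs in capitals did not overlap. Searched on both strands, TTTAAA was in 11.3% and AGGTCA in 12.1% of 35116 RefSeq promoters of the same length. CACCC, the core of KLF sites, had 3 matches in each gene and was present in 54.7% of promoters. GGGCGG, the GC box, had 1 match at position -83 of ALPG and 0 in ALPP, against 42.6% of promoters. TATAAA (10.7% of promoters), the E-box CACGTG (6.34%), TTCNNNGAA of STAT factors (6.57%) and TGANTCA of AP-1 (6.57%) had 0 matches in these windows. The motifs were chosen after the sequences were seen, and a match is a run of letters and not a shown binding site.

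The 6 libraries held 16575546 to 18441049 recovered reads. ZDHHC20 itself, the targeted gene, had 2001, 2033 and 1940 normalized counts in the shControl libraries and 872, 779 and 893 in the shZDHHC20 libraries, which is 42.6% of the control mean (log2 difference -1.23, SE 0.0649, limma adjusted p = 4.36e-07). The normalized count is the number of reads on a gene divided by a size factor of its library, and is not corrected for gene length. The second shZDHHC20 library stood apart from the others, with 4.01% of its normalized counts on mitochondrial genes against 5.28% to 5.52% elsewhere, so values without it are given for the members and for the lists whose counts it changed. All 5 ductal and epithelial markers (KRT7, KRT8, KRT18, KRT19 and SOX9) were present, with summed normalized counts of 84334 to 86590 in shControl and 78101 to 79132 in shZDHHC20. The defining markers of other cell types were at or near 0, apart from COL1A1 among the fibroblast markers. The acinar markers (1 of 6 with a row) summed to at most 8.45, the endocrine markers (1 of 5) to at most 6.36, the leukocyte markers (2 of 5) to at most 7.42, the endothelial markers (3 of 4) to at most 14.1 and the hepatocyte markers (3 of 5) to at most 12.2. The part of these shifts in the results below was not tested.

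ALPG, the germ cell type enzyme, was the abundant member and had about 2.1 times the control level after ZDHHC20 silencing. Its normalized counts were 2245, 2145 and 2153 in the shControl libraries and 4355, 4659 and 4631 in the shZDHHC20 libraries. The groups did not overlap, and the lowest shZDHHC20 library was 1.94 times the highest shControl library. The means were 2181 ± 55.7 (SD, n = 3) and 4548 ± 168 (SD, n = 3), a ratio of 2.09 and a log2 difference of 1.06 with a standard error of 0.0501. These values rest on 20390 recovered reads over the 6 libraries. The coefficient of variation between libraries was 2.55% in shControl and 3.69% in shZDHHC20, against 2.15% and 1.47% from the counting of reads alone. In bulk RNA, more cells that express the gene and more RNA in each cell cannot be told apart.

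ALPP, the placental enzyme, was counted at a much lower level and was also higher in every shZDHHC20 library. Part or all of this count may be reads of ALPG. ALPP had 198, 166 and 182 normalized counts in the shControl libraries and 361, 331 and 318 in the shZDHHC20 libraries. Again the groups did not overlap, with the lowest shZDHHC20 library at 1.60 times the highest shControl library. The means were 182 ± 16.2 (SD, n = 3) and 337 ± 22.5 (SD, n = 3), a ratio of 1.85 and a log2 difference of 0.89 with a standard error of 0.105, from 1566 recovered reads. The coefficient of variation was 8.88% and 6.70%, against 7.43% and 5.42% from counting alone, so the spread of ALPP between libraries was close to that of counting. ALPP is overlapped on the opposite strand by the antisense gene AC068134.1, which was not analysed here. The library kit keeps strand, and whether counting used it is not given in the sources used here.

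Both measured members, 2 of 2, were above every shControl library in every shZDHHC20 library, as were 13.8% of all tested genes, and since this contrast chose the family nothing is read from the count. Without the second shZDHHC20 library the log2 difference was 1.04 for ALPG and 0.90 for ALPP.

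Per kilobase of exon, which allows a comparison between genes, ALPG stood far above ALPP in both groups. ALPG had a level of 875 ± 22.3 (SD, n = 3) normalized counts per kb in shControl, rank 791 of 27394 genes, and 1824 ± 67.3 in shZDHHC20, rank 302. ALPP had 59.5 ± 5.29 per kb in shControl, rank 8763, and 110.01 ± 7.37 in shZDHHC20, rank 6433. The exon union was 2.493 kb for ALPG and 3.059 kb for ALPP. The order of the members was therefore the same in all 6 libraries.

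The proportion of the members to each other had overlapping ranges in both groups. The normalized count of ALPP was 8.82%, 7.72% and 8.47% of that of ALPG in the shControl libraries and 8.30%, 7.10% and 6.86% in the shZDHHC20 libraries (8.34% ± 0.559 and 7.42% ± 0.773, SD, n = 3). The sum of ALPG and ALPP was 2363 ± 70.5 in shControl and 4885 ± 147 in shZDHHC20, 2.07 times as high. If each shared read was counted for 1 of the genes, this sum does not depend on the split between them. It would change if shared reads were dropped or counted for both, which is not known here. ALPG made up most of the sum in each group.

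Among the 4136 genes that averaged 1000 or more normalized counts over the 6 libraries, ALPG had the largest log2 rise, at 1.06, and the next were PKP3, a desmosome plaque protein, at 0.94, TPM4, a tropomyosin, at 0.88 and ADA at 0.71. That minimum, and the names of PKP3 and TPM4, were chosen after the values were seen. With a minimum of 100, ALPG was 11th and ALPP 32nd of 10908 genes, and with a minimum of 10 they were 150th and 266th of 15101. Over all 22189 genes tested, whose low values scatter widely, they were 1950th and 2315th. The place in the order thus depended on the minimum.

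**Figure D2:**
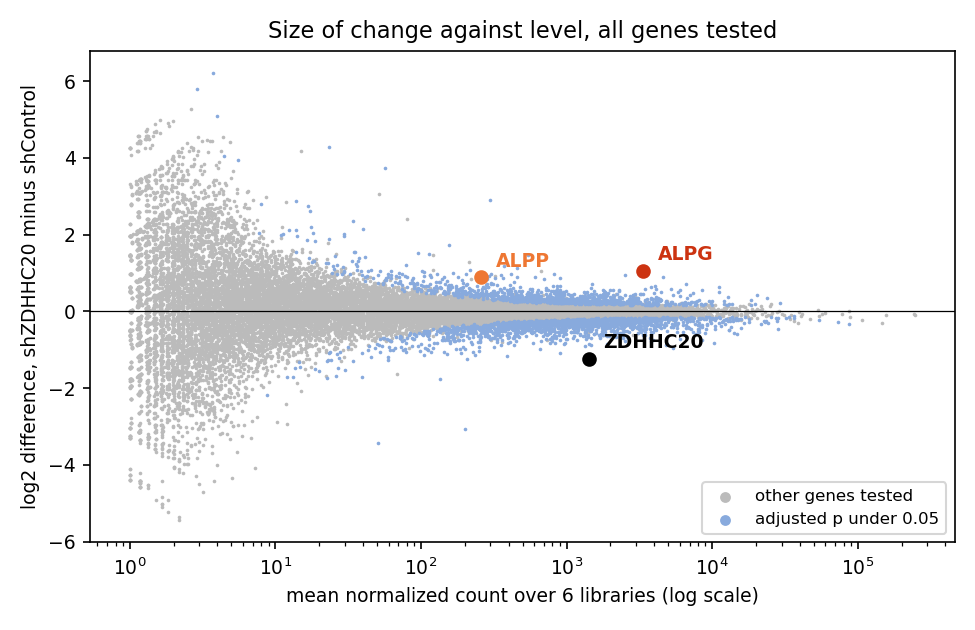
Log2 difference between shZDHHC20 and shControl (y axis) against the mean normalized count over 6 libraries (x axis, log scale), with genes at an adjusted p under 0.05 in blue and the others tested in grey. ALPG lies at a mean of 3365 and a log2 difference of 1.06, ALPP at 259 and 0.89, both above the bulk of genes of like level, and ZDHHC20 at -1.23.

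The genes around the locus were looked at next. Within 500 kb of ALPG or ALPP, 23 other genes had a row and 15 passed the filter, of which 1 was higher and 0 were lower at an adjusted p under 0.05 in limma (5 higher and 0 lower at an unadjusted p under 0.05, and 2 and 0 adjusted in both edgeR and DESeq2). Over all genes tested, limma called 4.61% higher and 6.84% lower, so nothing is read from this count. The gene that rose was EFHD1, a calcium-binding protein of mitochondria, with 781 ± 26.0 normalized counts in shControl and 923 ± 47.9 in shZDHHC20 (log2 difference 0.24, SE 0.067, limma adjusted p = 0.0345, n = 3 per group), although its adjusted p was 0.169 without a mean-variance trend. It is overlapped on the other strand by AC073254.1, which had 11.7 and 26.4 normalized counts (log2 difference 1.26, adjusted p = 0.0676). The genes next to the members did not pass the test. ECEL1P1, a pseudogene beyond the end of ALPG, had 40.6 ± 5.59 and 54.0 ± 6.99 (log2 difference 0.41, adjusted p = 0.271), and ECEL1P2, between ALPP and ALPG, had 19.4 ± 3.15 and 21.9 ± 2.20 (log2 difference 0.18, adjusted p = 0.782). Among the better measured neighbours, EIF4E2, a cap-binding protein, had 1248 ± 18.4 and 1420 ± 61.0 (log2 difference 0.19, adjusted p = 0.0573) and GIGYF2, its partner, 1942 ± 60.1 and 2116 ± 48.2 (log2 difference 0.12, adjusted p = 0.164). The remaining neighbours, with the exonuclease gene DIS3L2 (440 and 405), the exchange factor NGEF (612 and 564), TIGD1 (61.3 and 65.9), SNORC (66.0 and 53.5), ECEL1 (31.2 and 35.3), NPPC (7.71 and 14.3), NRBF2P6 (10.1 and 4.004), AC068134.2 (6.37 and 15.9) and PRSS56 (2.34 and 3.803), had adjusted p-values from 0.132 to 0.887. The log2 differences of the neighbours tested reached 1.29 in AC068134.2, 1.26 in AC073254.1 and 1.14 in NPPC, whose low counts gave standard errors of 0.506, 0.408 and 0.570. In ECEL1P1, AC068134.2, EIF4E2, AC073254.1, EFHD1 and GIGYF2 every shZDHHC20 library was above every shControl library. In NGEF and NRBF2P6 every shZDHHC20 library was below. Of the 22189 genes tested, 3062 were above and 3285 below in this way. A shared change of the region was not tested.

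The genes most like ALPG in pattern over the 6 libraries were COL21A1, a fibrillar-associated collagen, MISP, a spindle-positioning protein, and H2BC5, a histone H2B. Likeness was the root mean square difference of the centred log2 values, computed against 15100 other genes with a mean of at least 10, and was 0.0337 for COL21A1, 0.0708 for MISP and 0.0778 for H2BC5. COL21A1 had 140 ± 5.61 normalized counts in shControl and 297 ± 10.01 in shZDHHC20, MISP 551 ± 27.2 and 1088 ± 51.0, and H2BC5 242 ± 6.69 and 466 ± 21.4 (n = 3 each). Their log2 differences were 1.09, 0.98 and 0.94, against 1.06 for ALPG. This measure mostly finds genes with a like difference between the groups, and the family was chosen on that difference. Nothing further is read from the likeness. For ALPP the nearest were SPINT1, an inhibitor of the matriptase family of surface proteases, at 0.0899, H2BC5 at 0.0992 and FGD4, a Cdc42 exchange factor, at 0.102. SPINT1 had 317 ± 14.3 and 592 ± 31.8, and FGD4 259 ± 15.9 and 472 ± 35.4. ALPP was the 11th nearest gene to ALPG and ALPG the 17th nearest to ALPP, both at 0.133 and the part of the reads they share in this likeness was not tested.

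The genes that work with or beside these enzymes were taken from 10 lists covering 296 genes, of which 232 had a row and 200 passed the filter. In all, 36 of the 200 passed an adjusted p under 0.05 (limma), 12 higher and 24 lower, which is 18.0% against 11.5% of all genes tested. The calls over all genes leaned the same way, with 1024 higher (4.61%) and 1517 lower (6.84%). Of the 36 calls, 10 were in the osteoblast and mineralisation list. Both shares depend on the filter. With a mean of at least 5, 39 of 171 list genes and 2822 of 16888 of all genes were called. The median log2 difference over the 200 was -0.02, against 0.01 over all genes. Without the second shZDHHC20 library, 52 of the 200 genes passed, 21 higher and 31 lower, and 4268 of all genes, 1897 higher and 2371 lower. Calls over all genes thus rose too, so nothing is read for any list from the calls added in this way. The counts of the acid phosphatase, pyrophosphate and phosphate, nucleotide and adenosine, and germ cell lists were the same without that library, and the other lists are given with their counts below. Of the 36 genes, 24 are named below with 12 more, and 6 of those 24, XPR1, ADA, ANPEP, PGF, SMAD5 and ID2, passed under every alternative tried, whereas the other 18 lost the call in at least 1, for most of them when no mean-variance trend was fitted.

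Other phosphatases and the makers and carriers of phosphate and pyrophosphate came first. Of 7 acid phosphatases tested, ACP1 rose, from 1095 ± 31.7 to 1297 ± 43.8 (log2 difference 0.24, adjusted p = 0.0170), and ACP7, a purple acid phosphatase, fell, from 1316 ± 32.4 to 909 ± 60.8 (log2 difference -0.53, adjusted p = 0.000168). The median of the list was 0.02. Of 12 genes of pyrophosphate and phosphate handling, 1 fell and 0 rose in limma, with a median of -0.07 (1 higher at an unadjusted p under 0.05, 0 adjusted in edgeR and DESeq2). The gene that fell was XPR1, the phosphate exporter, from 1191 ± 58.7 to 789 ± 24.6 (log2 difference -0.59, adjusted p = 6.4e-05). The partners below, named for their roles after the values were seen, did not pass. ENPP1, which makes extracellular pyrophosphate from ATP, had 213 ± 2.77 and 194 ± 3.73 (adjusted p = 0.463), and ANKH, a membrane transporter needed for extracellular pyrophosphate, had 372 ± 16.7 and 408 ± 10.8 (adjusted p = 0.352). The phosphate importer SLC20A1 had 2105 ± 60.9 and 1915 ± 166 (adjusted p = 0.216), and PHOSPHO1, the phosphatase of matrix vesicles, 43.6 ± 3.04 and 36.5 ± 6.88 (adjusted p = 0.538).

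Genes of extracellular nucleotide and adenosine handling, whose AMP and ATP are substrates of alkaline phosphatases, included 20 tested, with 2 higher, 1 lower and a median of -0.02. ADA, which deaminates adenosine, rose from 1127 ± 54.1 to 1846 ± 62.9 (log2 difference 0.71, adjusted p = 1.02e-05), and SLC29A2, an equilibrative nucleoside transporter, from 512 ± 29.5 to 755 ± 44.1 (log2 difference 0.56, adjusted p = 0.000391). ADORA1, an adenosine receptor, fell from 20.1 ± 7.15 to 6.46 ± 3.22 (log2 difference -1.70, adjusted p = 0.0482). This low count was a borderline call, with a limma adjusted p of 0.232 without shControl replicate 1. In this list edgeR called 1 gene lower and DESeq2 0. NT5E, the GPI-anchored enzyme that turns AMP to adenosine, as alkaline phosphatases can, had 2110 ± 27.8 and 1989 ± 213 (adjusted p = 0.486). It was named for that role after its values were seen. Of the 7 vitamin B6 genes, 0 passed in limma, edgeR or DESeq2, with a median of 0.01, and 1 was higher and 1 lower at an unadjusted limma p under 0.05. Without the second shZDHHC20 library 1, PHOSPHO2, was called higher. The kinase PDXK had 3521 ± 56.5 and 3557 ± 59.2 (adjusted p = 0.893) and ALDH7A1, a lysine-breakdown enzyme whose loss inactivates pyridoxal phosphate, 630.0 ± 10.2 and 649 ± 41.4 (adjusted p = 0.789).

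The GPI anchor that holds these enzymes on the membrane is made and attached in the endoplasmic reticulum. Of the 37 genes of that path tested, 5 rose and 2 fell, with a median of 0.05, and without the second shZDHHC20 library 6 were higher and 3 lower, PIGT among those added. DPM1, which makes the mannose donor, rose from 689 ± 69.5 to 951 ± 24.4 (log2 difference 0.47, adjusted p = 0.00156), and PGAP6 rose from 1514 ± 29.6 to 1855 ± 150 (log2 difference 0.29, adjusted p = 0.00973). TMED10, a cargo receptor of the early secretory path, fell from 3142 ± 101 to 2517 ± 152 (log2 difference -0.32, adjusted p = 0.00239), and the mannosyltransferase PIGM from 513 ± 19.4 to 395 ± 17.4 (log2 difference -0.38, adjusted p = 0.00708). TMED2, PIGB and PIGG made up the rest of those that rose, with adjusted p-values from 0.0147 to 0.0207. Subunits of the transamidase that joins protein to anchor, named for that role after the values were seen, did not pass. PIGK, its catalytic subunit, had 781 ± 39.2 and 787 ± 58.7 (adjusted p = 0.963), and PIGT 2336 ± 54.6 and 2082 ± 49.7 (adjusted p = 0.0534).

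Of 59 other proteins with a GPI anchor, 3 were higher and 4 lower, with a median of -0.07. That is 11.9%, close to the 11.5% of all genes, and without the second shZDHHC20 library 4 were higher and 7 lower. SEMA7A, a semaphorin, rose from 224 ± 10.7 to 353 ± 57.6 (log2 difference 0.64, adjusted p = 0.00288), and CD24 and EFNA2 rose with adjusted p-values of 0.0350 and 0.0384. MMP17, a membrane metalloprotease, fell from 865 ± 29.4 to 644 ± 62.2 (log2 difference -0.43, adjusted p = 0.00321), NTNG2, a netrin, from 397 ± 31.3 to 298 ± 10.4 (log2 difference -0.41, adjusted p = 0.00980) and LY6E from 1213 ± 40.5 to 953 ± 75.6 (log2 difference -0.35, adjusted p = 0.00514). GPC2, a glypican, was the last of the genes that fell (log2 difference -1.01, adjusted p = 0.0210). The complement inhibitors CD59 and CD55, named for their high levels after the values were seen, had 8443 ± 39.5 and 8398 ± 445, and 2187 ± 49.99 and 2136 ± 159 (adjusted p = 0.94 and 0.773).

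Genes of the tissues where the family is normally used were tested in the next lists. Of 16 enterocyte brush border genes tested, 1 fell and 0 rose in limma (median 0.04, 2 higher at an unadjusted p under 0.05, 0 adjusted in edgeR and DESeq2), and of 16 placental trophoblast genes 1 rose and 3 fell (median -0.04). ANPEP, an aminopeptidase of the brush border, fell from 17730 ± 383 to 11747 ± 496 (log2 difference -0.59, adjusted p = 4.83e-06). In the trophoblast list, PEG10 fell from 4063 ± 112 to 2672 ± 270 (log2 difference -0.61, adjusted p = 7.25e-05), PGF, placental growth factor, from 144 ± 16.3 to 65.1 ± 2.67 (log2 difference -1.14, adjusted p = 0.000276) and ITGA1 from 31.5 ± 2.65 to 15.1 ± 4.61 (log2 difference -1.10, adjusted p = 0.0451). GATA3, a trophoblast transcription factor, rose from 272 ± 16.5 to 343 ± 25.3 (log2 difference 0.33, adjusted p = 0.0388). Without the second shZDHHC20 library 2 brush border genes, EZR and PLS1, were called higher and 1 lower, and 3 trophoblast genes higher and 2 lower, with TFAP2A and TFAP2C added and ITGA1 lost. Of 9 germ cell genes tested, LIN28B fell, from 200.1 ± 26.3 to 118 ± 27.8 (log2 difference -0.78, adjusted p = 0.0106).

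The osteoblast and mineralisation list, the setting of ALPL, had 10 of 24 genes called in limma, all lower, against 6.84% called lower over all genes, with a median of -0.23. Without the second shZDHHC20 library 14 were lower and 2 higher, against 2371 lower and 1897 higher of all 22189 genes tested. In the higher direction, 1 gene had an unadjusted p under 0.05, and edgeR and DESeq2 each called 1. SMAD5, which carries the signal of bone morphogenetic proteins (BMPs), fell from 2075 ± 9.99 to 1369 ± 16.7 (log2 difference -0.60, adjusted p = 1.29e-05), and ID2, a target of that pathway, from 146 ± 9.81 to 74.0 ± 3.64 (log2 difference -0.98, adjusted p = 0.000536). The matrix genes COL1A1, from 3931 ± 42.7 to 3260 ± 134 (log2 difference -0.27, adjusted p = 0.00288), and SPARC, from 523 ± 1.47 to 394 ± 15.3 (log2 difference -0.41, adjusted p = 0.00344), fell as well. RUNX2, DLX3, MSX1, BMP7, ID1 and ID3 fell with adjusted p-values from 0.0112 to 0.0304. COL1A1 also carried the fibroblast markers, whose sum was 3885 to 3961 in shControl and 3115 to 3384 in shZDHHC20, with LUM (mean 1.17) and PDGFRB (mean 3.85) near 0. Among the 24 called genes named with full values, 18 overlap another annotated gene, on the same or the opposite strand, so that their counts may hold reads of that gene.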

How the data were processed

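Total RNA of PANC-1 cells was sequenced by the authors in 6 libraries made with a strand-specific kit. The deposited table holds, per gene, a signal that its name calls FPKM but that is a normalized count, the authors' read count divided by a library size factor: in each library every value was a whole multiple, within 0.1 steps, of 1 step (100% of values), and whole reads were recovered from it. The submitters' processing notes name hg19. The aligner, counter and their settings are not given in the sources used here. Columns named siZDHHC20 and NC were matched to the shZDHHC20 and shControl titles by group and number, and 0 value columns belonged to no sample. Every listed gene had at least 2 recovered reads in all.

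Gene names were matched for 27175 of 27394 identifiers, and all 27394 were in GENCODE 29, whose GRCh38 coordinates are printed. Values were tested as log2(value + 0.1) with limma 3.58.1 (R 4.3.3, mean-variance trend, Benjamini-Hochberg adjustment over all 22189 genes with a mean of at least 1), so fold changes of genes near 0 depend on the pseudocount and can differ in size, and in PRSS56 in sign, from the ratio of means. At an adjusted p under 0.05, 2541 genes (11.5%) were called. Differences of means are shZDHHC20 minus shControl, and errors are SD over 3 libraries or the SE of the fit. On simulated data of 27394 genes for this comparison, of the genes changed 2-fold, 100 of 100 averaging 100 or more and 60 of 100 averaging 10 to 100 were recovered, and 2 of 22093 unchanged genes were called. The simulated counts had the same dispersion for every gene and no library that stood apart. These rates are therefore not the error rates of the real comparison.

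The family and the gene lists were chosen with earlier results of these data known. Genes named were the members, ZDHHC20, the 4 called genes of smallest adjusted p in each list (the 2 of highest mean where none was called), tested genes within 500 kb and the 3 nearest in pattern to each member. Any others were chosen after their values were seen. The alternatives tried used a pseudocount of 1 or 0.01, a filter at 5 or none, size factors by median ratio, quantile normalization, no mean-variance trend, a replicate block, each library left out, edgeR 4.0.16 and DESeq2 1.42.0 on the recovered reads. A stretch of coding sequence is not reported here. Sequences were from GENCODE 29 and RefSeq (GRCh38.p14), aligned with Biopython 1.88. No values from the authors' own comparisons were used.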

Additional observations from a re-analysis of the deposited data

How the results depend on the processing

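ALPG stayed in the same direction under all 16 alternatives, with a log2 difference from 1.04 (without shZDHHC20 replicate 2) to 1.09 (without shZDHHC20 replicate 1), and so did ALPP, from 0.82 (without shControl replicate 2) to 0.95 (without shControl replicate 1). The changed filters, median-ratio size factors, the fit without a trend and the replicate block left these estimates at 1.06 and 0.89. The filters, the trend and a balanced block cannot move such an estimate, and the deposited values were already scaled as by median ratio. The family was chosen on the direction of ALPG and ALPP, so the stability of that direction is a description and not support. ZDHHC20 stayed below 0 and called, from -1.27 to -1.17, with a highest adjusted p of 0.0162 where no mean-variance trend was fitted. The number of genes called, 2541, fell to 351 with no mean-variance trend and ran from 1036 (without shControl replicate 1) to 4268 (without shZDHHC20 replicate 2) when 1 library was left out. The number of called genes in the pathway lists, 36, fell to 6 with no trend and ran from 16 (without shControl replicate 3) to 52 (without shZDHHC20 replicate 2). The cause of these changes was not tested. All libraries enter the fit without a trend. Leaving out shZDHHC20 replicate 2 raised both counts, whereas leaving out any other library lowered them. On the recovered reads, edgeR called 2739 genes and 39 pathway genes, and DESeq2 2646 and 36. Median-ratio size factors gave the same 2541. No pairing by replicate number was seen in the deviations from the group means. Same-numbered libraries correlated at -0.052, -0.056 and -0.021, and none correlated best with its own number. With few libraries this check cannot exclude a shared culture or batch, which the labels do not describe. With a replicate block, 1942 genes and 31 pathway genes were called. ALPI and ALPL gave no value under any setting. The reads that ALPG and ALPP share limit how far their separate values can be read.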
